A study of Homo sapiens with 6 samples.

Results

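The guanylate-binding proteins (GBPs) were followed in T24 cells, an established human bladder cancer line, by RNA-seq of polyA RNA. The genes chosen were GBP1, GBP2, GBP3, GBP4 and GBP5, taken by their symbols, 5 of the 58174 genes with a value in each sample. The 3 shRNA-NC samples carried a scrambled control shRNA. The 3 shRNA-UBC9 samples carried an shRNA against UBC9, the single E2 enzyme that conjugates SUMO to proteins. Both shRNAs were introduced by lentivirus and stably expressed, and 1 shRNA stood for each group, so an effect of UBC9 loss and an effect of that one hairpin cannot be told apart. The labels give no age, time or dose, and do not say whether the samples came from separate cultures, so p-values measure the spread between these samples, which may be technical. All values are RPKM, read numbers divided by the length of the gene and the size of the library, and can be compared between genes per length.

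GBPs are large GTPases of the dynamin superfamily that are switched on by interferons, above all by interferon-gamma. They bind GTP, assemble on the membranes of bacteria and of pathogen-containing vacuoles, and pass the signal to inflammasomes and inflammatory caspases. GBP1, GBP2 and GBP5 end in a CaaX box that receives a lipid anchor, whereas GBP3 and GBP4 lack it. Transcription of GBP genes is driven by the JAK-STAT pathway, whose transcription factors bind to GAS elements and to ISRE elements.

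All 5 genes lie on the minus strand of chromosome 1 in 1 cluster of 266 kb. In RefSeq coordinates (GRCh38), GBP3 spans chr1:89006680-89022866, GBP1 chr1:89052319-89065208 and GBP2 chr1:89106132-89126114. GBP4 spans chr1:89181144-89198942 and GBP5 chr1:89256189-89272860. The 5 genes are close relatives, with 91.7% of coding bases identical between GBP1 and GBP3, 82.5% between GBP1 and GBP2, and 62.6% between GBP4 and GBP5, the least alike pair. In the canonical transcripts of GENCODE 44, their products have 592 residues for GBP1, 591 for GBP2, 595 for GBP3, 640 for GBP4 and 586 for GBP5. Of the 100-base windows of the GBP1 transcript, 1.98% were also found in another GBP gene, the pseudogene GBP1P1, and of those of GBP2, GBP3, GBP4 and GBP5, 0%. How the authors assigned reads that match several genes is not stated, and shorter reads could be split between relatives where longer windows differ. Antisense RNAs overlap GBP2, GBP4 and GBP5 in this annotation, and whether strand was used in counting is not stated.

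The sequences around the ISRE cores of the promoters are shown because all 3 promoters given by the RefSeq table (GRCh38.p14, 250 bases before the start site to 50 after it) held one, and GBP2 and GBP5 have no entry there. The ISRE core was searched as TTTCNNTTTC on both strands, which includes GAAANNGAAA, and the GAS core as TTCNNNGAA. Each line reads in the direction of transcription, 5′ to 3′, with the matched core in capitals.
GBP1 ISRE core, chr1:89065316-89065345, minus strand: aacgaagtacTTTCAGTTTCatattactct
GBP3 ISRE core, chr1:89022845-89022874, minus strand: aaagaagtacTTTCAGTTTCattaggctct
GBP4 ISRE core, chr1:89198927-89198956, minus strand: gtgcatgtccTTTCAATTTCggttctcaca
GBP3 GAS core, chr1:89022863-89022891, minus strand: actgagtcacTTCCTTGAAagaagtactt

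The core began 127 bases before the RefSeq start site in GBP1, 4 bases before it in GBP4, and at base 3 of the transcript in GBP3. GBP1 and GBP3 held the same 10 letters. The GAS core of GBP3 began 15 bases before its start site, and the 2 windows of GBP3 overlap. Of 35116 RefSeq promoter windows of this length, 3.57% held the ISRE core and 7.66% the GAS core. The windows of GBP6 and GBP7, relatives from the same region, held neither core. These are matches of letters, not measured binding.

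Recovered reads came to between 25170595 and 31620181 per sample, with overlapping ranges in both groups. The keratins KRT7, KRT8, KRT18 and KRT19 and VIM were highly expressed in every sample, whereas CDH1 was listed at 0 in all but 1 sample and the uroplakins were near 0. The 5 leukocyte markers read were each under 1 RPKM in every sample, summing to 0.557 to 0.881 RPKM in shRNA-NC and 0.758 to 0.979 RPKM in shRNA-UBC9. The 10 epithelial markers summed to 938 to 1108 RPKM in shRNA-NC and 426 to 564 RPKM in shRNA-UBC9. This sum rests almost entirely on the keratins named above, each lower in every shRNA-UBC9 sample than in every shRNA-NC sample. EPCAM, from the same list, was higher on average in shRNA-UBC9, with overlapping groups. It measured 0.412 to 0.986 RPKM in shRNA-NC and 0.732 to 2.51 RPKM in shRNA-UBC9. The endothelial cadherin CDH5 measured 2.58 to 3.15 RPKM in shRNA-NC and 0.241 to 1.02 RPKM in shRNA-UBC9. The endothelial markers PECAM1 and VWF were under 1 RPKM in every sample, with overlapping groups. The part of all these markers in the values below was not tested.

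Up-regulation of the GBP genes after UBC9 silencing was broad but uneven. DEGs were genes past a log2 change of 1 in either direction with an adjusted p-value below 0.05, by limma on log2(RPKM + 0.1). By this definition 4 of the 5 GBP genes were up-regulated DEGs, and GBP4 was not. Of all 12428 tested genes, 5.2% were up-regulated DEGs and 7.89% were DEGs in either direction. GBP5 reached the filter of 0.5 RPKM in 3 samples only through shRNA-UBC9, so its call does not count as support for the group. Among the 4 members over the filter in all samples, 3 were DEGs, with a median log2 fold change of 1.52, against 0.005 over all tested genes. In 3 of these 4 members, GBP1, GBP2 and GBP3, every shRNA-UBC9 sample lay above every shRNA-NC sample, which held for 25.7% of tested genes. The same held for GBP5, where it follows from how GBP5 passed the filter.

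**Figure D1:**
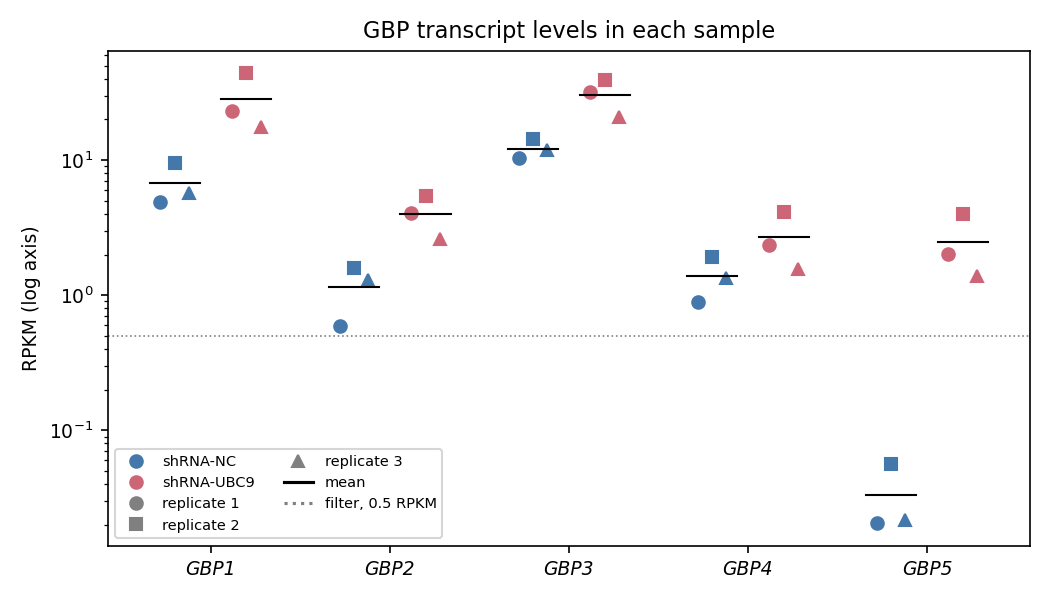
RPKM (log axis) of the 5 GBP genes in the 3 shRNA-NC (blue) and 3 shRNA-UBC9 (red) samples. The shape gives the replicate number, black lines the group means and the dotted line the filter of 0.5 RPKM; GBP4 is the member whose groups overlap, and GBP5 is far under the filter in shRNA-NC.

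GBP1, the best studied member and the one that coats cytosolic bacteria, measured 4.93, 9.56 and 5.73 RPKM in shRNA-NC and 23.0, 43.9 and 17.6 RPKM in shRNA-UBC9. The lowest shRNA-UBC9 sample was still well above the highest shRNA-NC sample. The mean of 28.2 ± 13.9 RPKM in shRNA-UBC9 was 4.18 times that of 6.74 ± 2.47 RPKM in shRNA-NC (SD, n = 3 each). The log2 fold change was 1.996 (SE 0.344, limma adjusted p-value 0.00314). These values rest on 735 to 1653 recovered reads per sample in shRNA-NC and 2478 to 7719 in shRNA-UBC9.

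GBP3, which lacks the lipid anchor and can join a GBP1 coat, was the most abundant GBP of the control cells. It measured 10.4, 14.2 and 11.8 RPKM in shRNA-NC and 32.0, 38.9 and 20.7 RPKM in shRNA-UBC9. The groups did not overlap, and the spread was wider in shRNA-UBC9. The mean of 30.5 ± 9.22 RPKM was 2.51 times that of 12.1 ± 1.93 RPKM in shRNA-NC (SD, n = 3 each). The log2 fold change of 1.29 (SE 0.220, limma adjusted p-value 0.00308) was the smallest among the 4 DEGs.

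GBP2, a lipid-anchored member, was expressed at a much lower level. It measured 0.587, 1.60 and 1.29 RPKM in shRNA-NC and 4.07, 5.39 and 2.60 RPKM in shRNA-UBC9. Again no shRNA-UBC9 sample fell within the range of shRNA-NC. The mean was 1.16 ± 0.519 RPKM in shRNA-NC and 4.02 ± 1.39 RPKM in shRNA-UBC9 (SD, n = 3 each), 3.47 times higher. The log2 fold change was 1.75 (SE 0.359, limma adjusted p-value 0.00666), with 110 to 348 recovered reads per sample in shRNA-NC.

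GBP5, which promotes assembly of the NLRP3 inflammasome and restrains the protease furin, was close to silent in the control cells. It measured 0.0206, 0.0567 and 0.0218 RPKM in shRNA-NC, or 5, 16 and 6 recovered reads. In shRNA-UBC9 it measured 2.03, 3.99 and 1.38 RPKM, or 596, 1146 and 318 recovered reads. Every shRNA-UBC9 sample was above the filter and every shRNA-NC sample far below it. The means, 0.0330 ± 0.0205 and 2.47 ± 1.36 RPKM (SD, n = 3 each), stood in a ratio of 74.8. The log2 fold change was 4.15 (SE 0.368, limma adjusted p-value 0.000174). Its size depends on the pseudocount, with 1.68 at a pseudocount of 1 and 5.81 at 0.01, while it stayed a DEG at both.

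GBP4, the other member without a lipid anchor, was the exception. It measured 0.897, 1.91 and 1.34 RPKM in shRNA-NC and 2.36, 4.12 and 1.56 RPKM in shRNA-UBC9. The shRNA-UBC9 replicate 3 lay below the shRNA-NC replicate 2, so the groups overlapped. The mean was 1.38 ± 0.507 RPKM in shRNA-NC and 2.68 ± 1.31 RPKM in shRNA-UBC9 (SD, n = 3 each). The log2 difference of 0.86 (SE 0.355, limma adjusted p-value 0.0910) did not pass, and the two-sided exact permutation test gave p = 0.2. Without shRNA-UBC9 replicate 3 the difference was 1.18 with a limma adjusted p-value of 0.0242, and GBP4 was then a DEG.

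**Figure D2:**
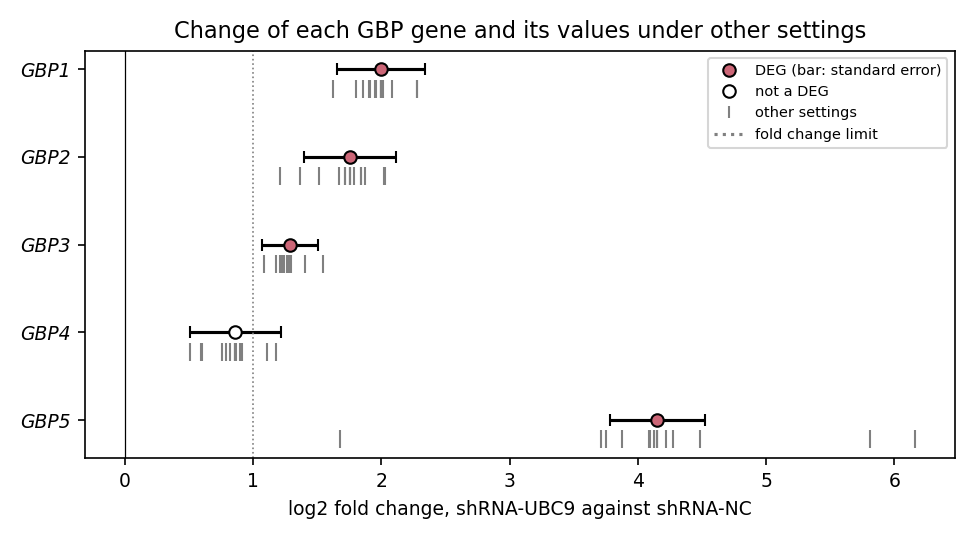
Log2 fold change of each GBP gene, shRNA-UBC9 against shRNA-NC, on log2(RPKM + 0.1), with its standard error (filled, DEG; open, not a DEG). Grey ticks give the same value under the other settings, all above 0; those of GBP5 run from 1.68 to 6.16.

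The rest of the family was read from few reads. GBP6 had 0 recovered reads in each shRNA-NC sample and at least 1, 3 and 3 in shRNA-UBC9. GBP7 had 0 in each shRNA-NC sample and at least 1, 1 and 0 in shRNA-UBC9, so no change was detectable at this depth in either. The pseudogene GBP1P1, which shares sequence with GBP1, had 0, 5 and 0 recovered reads in shRNA-NC and 27, 38 and 10 in shRNA-UBC9. None of these 3 passed the filter. Without the filter GBP1P1 was a DEG, with a log2 fold change of 1.73 (limma adjusted p-value 0.0176), and how far reads of GBP1 reach GBP1P1 was not tested.

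The samples numbered 2 were the highest of their group for all 5 members in both groups, as they were for 14.8% of tested genes. The shRNA-UBC9 replicate 3 was the lowest of its group for all 5. Without both samples numbered 2, the log2 fold changes were 1.90 for GBP1, 1.78 for GBP2, 1.21 for GBP3, 0.76 for GBP4 and 3.87 for GBP5, and the same 4 genes were DEGs. The cause of the higher values in these samples was not tested.

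The members were then compared with each other, to ask whether they moved by equal amounts. The summed RPKM of the 5 genes was 16.8, 27.3 and 20.2 in shRNA-NC and 63.5, 96.3 and 43.8 in shRNA-UBC9. The sum was thus 3.16 times higher on average, and the groups did not overlap (two-sided exact permutation test, p = 0.1, the smallest that 3 samples against 3 can give). Within this sum, the share of GBP3 went from 57.4% ± 4.98 to 46.0% ± 5.11 (SD, n = 3 each) and that of GBP1 from 30.9% ± 3.56 to 40.7% ± 4.67. The share of GBP5 went from 0.146% ± 0.0539 to 3.50% ± 0.560, while that of GBP4 went from 6.31% ± 0.869 to 3.85% ± 0.381. For each of these 4 shares the groups did not overlap, with p = 0.1 in the exact permutation test. The shares are parts of the same sum, so they do not move independently. GBP5 passed the filter only through shRNA-UBC9, so the outcome for its share is no support. How often shares within other sets of genes separate the groups was not counted. The share of GBP2, 5.24% ± 1.54 against 5.98% ± 0.408, overlapped between the groups (exact permutation test, p = 0.6).

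**Figure D3:**
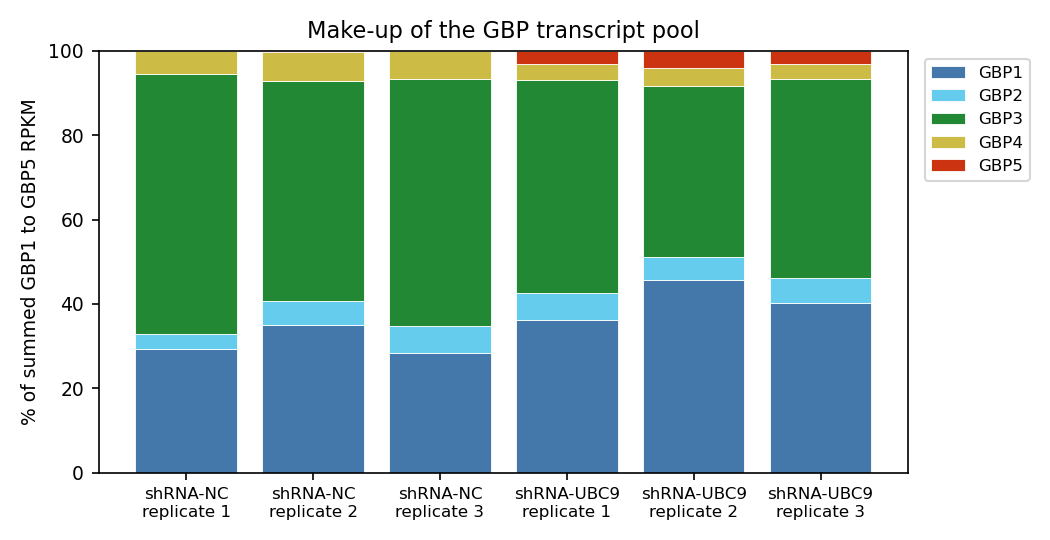
Share of each gene in the summed RPKM of GBP1 to GBP5, in % per sample. GBP3 makes up 52.0% to 61.8% of the sum in shRNA-NC and 40.4% to 50.4% in shRNA-UBC9, and the GBP5 share is visible only in shRNA-UBC9, at 3.16% to 4.15%.

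The order of levels was the same in all 3 shRNA-NC samples, with GBP3 highest, followed by GBP1, GBP4, GBP2 and GBP5. In all 3 shRNA-UBC9 samples GBP2 stood above GBP4, and in replicate 2 GBP1 also stood above GBP3. The neighbours GBP4 and GBP2 had overlapping ranges in shRNA-NC, as did GBP3 and GBP1 and GBP2, GBP4 and GBP5 in shRNA-UBC9.

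For 10 pairs of members the log2 ratio per sample was compared between the groups, and for 8 pairs the groups did not overlap. Of these 8, 4 contain GBP5, which passed the filter only through shRNA-UBC9, and 4 of the 6 pairs without GBP5 did not overlap. Each of those 8 gave p = 0.1 in the exact permutation test, or 0.125 after Benjamini-Hochberg adjustment over the 10 pairs, so none could reach 0.05. How often other pairs of tested genes separate the groups was not counted, so these numbers have no background beside them. The log2 difference of GBP1 was 0.71 above that of GBP3, its closest relative in sequence. GBP1 and GBP2 were 1.14 and 0.89 above GBP4, and GBP2 was 0.47 above GBP3. GBP5 was above the other members by 2.16 to 3.29 with a pseudocount of 0.1, whereas with a pseudocount of 1 its log2 fold change of 1.68 was below the 1.86 of GBP1. The pairs with overlapping groups were GBP1 with GBP2, which differed by 0.24 (exact permutation test, p = 0.5), and GBP3 with GBP4, which differed by 0.43 (exact permutation test, p = 0.2).

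To place the rise within the chromosome, the 5 RefSeq protein-coding genes on either side of the cluster were read. Of these 10 genes, which include GBP6, 7 were tested. In limma 0 were DEGs, both on log2(RPKM + 0.1) and by voom on recovered reads, although 4 had an unadjusted p-value below 0.05. Over all tested genes 7.89% were DEGs, so 0 of 7 does not set the neighbours apart. GTF2B, a general transcription factor of RNA polymerase II, had the largest difference among them, at 0.74 (SE 0.137, limma adjusted p-value 0.00414), under the fold change limit. PKN2, a protein kinase, was lower by -0.50 on the log2 scale (limma adjusted p-value 0.00677), also under the limit. KYAT3, an enzyme of kynurenine metabolism, was lower by -0.31 (limma adjusted p-value 0.0368). LMO4, RBMXL1, LRRC8C and LRRC8D had log2 differences from 0.05 to 0.27.

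**Figure D4:**
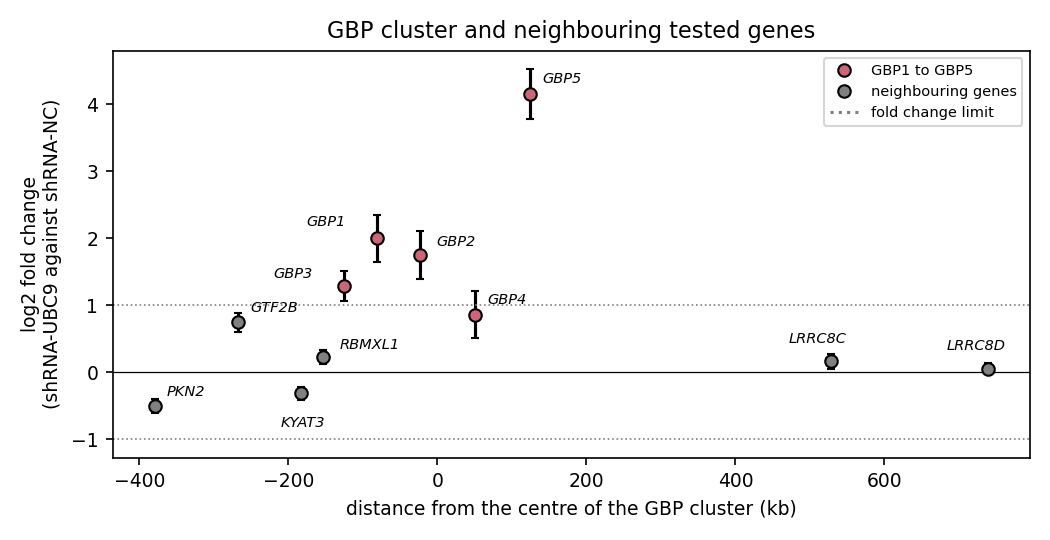
Log2 fold change with its standard error against the distance in kb from the centre of the GBP cluster, for the 5 members (red) and the tested neighbours (grey); LMO4, much farther from the cluster, is not drawn. All neighbours lie within the dotted fold change limits, and the members lie at 0.86 to 4.15.

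Upstream of the GBPs, interferon genes themselves were weakly expressed. IFNG, the gene of interferon-gamma, was listed at 0 in all 6 samples. IFNL1, a type III interferon, measured 0.0391, 0.0674 and 0.0690 RPKM in shRNA-NC and 0.680, 2.38 and 0.620 RPKM in shRNA-UBC9. The control values rest on 1, 2 and 2 recovered reads. IFNL1 was the only ligand tested of 8, passing the filter only through shRNA-UBC9, and was a DEG with a log2 fold change of 2.82 (SE 0.469, limma adjusted p-value 0.0027). With a pseudocount of 1 its log2 fold change was 0.99, under the limit, and it was not a DEG. IFNB1, the gene of interferon-beta, had 0 recovered reads in each shRNA-NC sample and at least 15, 24 and 5 in shRNA-UBC9. It did not pass the filter and was a DEG only without it (limma adjusted p-value 0.00775). Both were highest in shRNA-UBC9 replicate 2, as were all 5 GBPs and, under the filter, IFNL2 and IFNL3. IFNE, also under the filter, was highest in replicate 1 of both groups, in shRNA-UBC9 at 0.808 RPKM against 0.789 in replicate 2. The share of all tested genes highest in this sample was not counted, and a link between ligands and GBPs was not tested.

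Of 13 receptors and transducers of interferon signals read here, 12 were tested, and 1 was a DEG, IRF9. The median log2 fold change over the list was 0.24. With 7.89% of all tested genes being DEGs, 1 of 12 does not set this list apart. IRF9, the DNA-binding partner of STAT2, measured 6.16, 7.79 and 6.92 RPKM in shRNA-NC and 20.5, 22.3 and 17.5 RPKM in shRNA-UBC9. The groups were well apart, and both were highest in the sample numbered 2, as with the GBPs and 14.8% of tested genes. It rose by 1.52 (SE 0.123, limma adjusted p-value 0.000109). IFNGR2, a chain of the interferon-gamma receptor, and STAT2 were higher by 0.999 and 0.85 (limma adjusted p-values 0.000551 and 0.0182), without exceeding the fold change limit. IRF1, a transcription factor that acts at GBP promoters, was 7.23 ± 0.530 RPKM in shRNA-NC and 5.36 ± 1.63 RPKM in shRNA-UBC9 (SD, n = 3 each), a difference of -0.46 that did not pass (limma adjusted p-value 0.0834). The kinases JAK1, JAK2 and TYK2 had differences of 0.31, -0.01 and -0.03.

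Of 8 brakes on interferon signalling, 6 were tested and 2 were up-regulated DEGs, where 5.2% of all tested genes were. USP18, which blocks the type I interferon receptor and removes ISG15, rose by 2.67 (SE 0.381, limma adjusted p-value 0.00141). SOCS3, a feedback inhibitor of JAK kinases, rose by 1.02 (SE 0.207, limma adjusted p-value 0.00637), just past the limit, and was not a DEG after quantile normalization or median scaling. SOCS1, the main brake on interferon-gamma signals, had a difference of 0.04 (limma adjusted p-value 0.913).

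Of 17 genes read here that are widely used as markers of an interferon-gamma response, 14 were tested. Of these, 7 were DEGs, each up-regulated, where 5.2% of all tested genes were up-regulated DEGs. The median of the 14 was 1.16. Among the 11 over the filter in all samples, 5 were DEGs, with a median of 0.92. The chemokines CXCL10 and CXCL11 had the largest log2 fold changes, 5.55 and 5.73 (limma adjusted p-values 0.00242 and 0.000495). CXCL10 measured 0.171, 0.589 and 0.0503 RPKM in shRNA-NC, or 6, 24 and 2 recovered reads. In shRNA-UBC9 it measured 8.54, 64.6 and 5.06 RPKM, so its mean there rests largely on replicate 2. CXCL11 had 2, 15 and 3 recovered reads in shRNA-NC. CXCL11 passed the filter only through shRNA-UBC9, and CXCL10 had just 1 shRNA-NC sample over it. The calls of these chemokines are thus no support for the list. The adhesion molecule ICAM1 rose by 2.56, the peptide transporter TAP1 by 1.60, the checkpoint ligand CD274 by 1.38, the MHC class I activator NLRC5 by 1.26 and the immunoproteasome subunit PSMB9 by 1.16. Without shRNA-UBC9 replicate 2, NLRC5 and PSMB9 were at 0.97 and 0.95 and were not DEGs, which left 5. HLA-E, PSMB8, PSMB10, WARS, IDO1, SOCS1 and IRF1 were not DEGs. CIITA, CXCL9 and HLA-DRA did not pass the filter.

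Of 15 dynamin superfamily and other interferon-inducible GTPase genes, 11 were tested, with a median of -0.09. Of these, 2 were DEGs, where 7.89% of all tested genes were. MX1 and MX2, the antiviral dynamin-like GTPases, were these 2, with log2 fold changes of 4.53 and 3.43 (limma adjusted p-values 0.000184 and 0.000462). The atlastins ATL2 and ATL3, which fuse membranes of the endoplasmic reticulum, had differences of -0.27 and -0.39. The dynamins DNM1, DNM2 and DNM1L and the mitochondrial OPA1, MFN1 and MFN2 had differences from -0.30 to 0.04.

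The enzymes that attach and process lipid anchors of CaaX proteins were all tested, and 0 of 6 were DEGs in limma, on log2(RPKM + 0.1) and by voom. With 7.89% of all tested genes being DEGs, 0 of 6 does not set these enzymes apart. Only RCE1, the CaaX protease, had an unadjusted p-value below 0.05, with a difference of 0.34 (SE 0.0815, limma adjusted p-value 0.0127). FNTA, FNTB and PGGT1B, the subunits of the farnesyl and geranylgeranyl transferases, had differences of 0.14, -0.08 and 0.12.

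Of 15 partners and downstream effectors of the GBPs, 13 were tested, with a median of 0.96. Of these, 5 were DEGs, each up-regulated, where 5.2% of all tested genes were up-regulated DEGs. IL1B, a cytokine matured by inflammasomes, measured 27.6 ± 5.11 RPKM in shRNA-NC and 470 ± 59.0 RPKM in shRNA-UBC9 (SD, n = 3 each). It rose by 4.09 on the log2 scale (SE 0.151, limma adjusted p-value 6.9e-06). CASP1 rose by 1.88 and CASP4, the sensor of cytosolic lipopolysaccharide, by 1.25 (limma adjusted p-values 0.00759 and 0.000439). NLRP3, the sensor that GBP5 acts on, rose by 1.65, and APOL3, an apolipoprotein that works with GBP1 against bacteria, by 1.37 (limma adjusted p-values 0.00069 and 0.00651). The pore former GSDMD, the adaptor PYCARD and the kinase PIM1, which restrains GBP1, had differences of 0.14, 0.06 and -0.04, and did not pass. IL18 and SFN, from the same list, were lower on average in shRNA-UBC9, with overlapping groups. Their differences of -0.37 and -0.36 did not pass either. IL18 averaged 18.8 RPKM in shRNA-NC and 14.6 RPKM in shRNA-UBC9 (limma adjusted p-value 0.0564). RNF213, a ubiquitin ligase of bacterial surfaces, was higher by 0.998 (limma adjusted p-value 0.00262), just under the fold change limit. AIM2, a DNA sensor, had 0 recovered reads in each shRNA-NC sample and at least 18, 33 and 8 in shRNA-UBC9. It was a DEG only without the filter (limma adjusted p-value 0.00918).

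**Figure D5:**
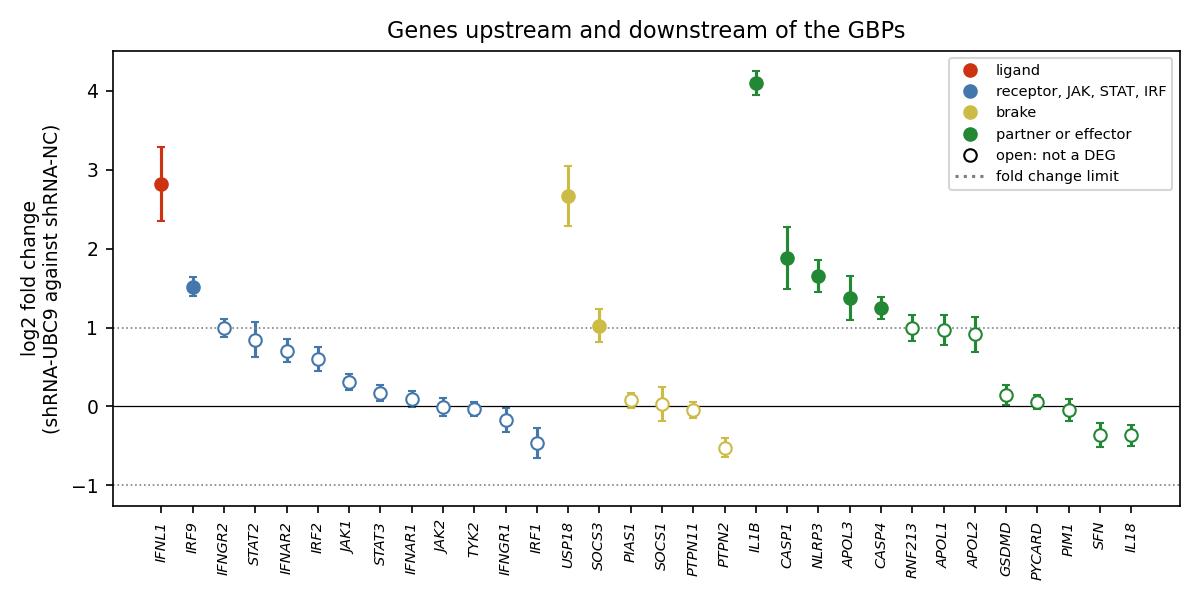
Log2 fold change with its standard error of the tested interferon ligand, receptors and transducers, brakes, and GBP partners and effectors (filled, DEG; open, not a DEG). IRF9 at 1.52, USP18 at 2.67 and IL1B at 4.09 stand at the top of their groups, while JAK2, TYK2, SOCS1, GSDMD and PYCARD lie near 0.

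Genes with the sample pattern most like that of each member were found by the root mean square difference of log2(RPKM + 0.1), centred per gene, over the 6 samples. This measure takes in the difference between the groups and so favours genes of like fold change. For GBP1 the nearest were C1R at 0.186, IFIT5 at 0.201 and DDX58 at 0.203, a complement protease, an antiviral RNA-binding protein and the RNA sensor RIG-I. For GBP2 they were CASP1 at 0.197, C1R at 0.231 and BST2, the virus tether, at 0.253.

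For GBP3 they were TRIM34 at 0.0887, TDRD7 at 0.0991 and PPM1K at 0.147. For GBP4 they were TLR3, a sensor of double-stranded RNA, at 0.108, GIMAP2 at 0.122 and NMI at 0.201. The nearest gene of GBP5 was farther than that of each other member, with RP11-301G19.1 at 0.243, RSPO3 at 0.324 and TFPI2 at 0.325. GBP5, RP11-301G19.1 and RSPO3 averaged 0.0330, 0.0573 and 0.166 RPKM in shRNA-NC. At such levels the pseudocount of 0.1 weighs on this measure.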

How the data were processed

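RNA-seq of polyA RNA from T24 cells was read for 3 shRNA-NC and 3 shRNA-UBC9 samples, grouped by their titles. The authors trimmed adaptors, mapped reads to GRCh38 (hg38 in their notes) with CLC Biomedical Genomics Workbench 4, and the deposited files hold 1 RPKM value per gene and sample. The annotation release and the handling of strand and multi-mapping reads are not given in the sources used here. RPKM is not corrected for RNA composition.

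RPKM values move in whole steps of 1 read, so reads were recovered for 18049 of 18054 genes above 0 in at least 4 samples (99.97%, tolerance 0.001 of a whole read); whether 1 read is a read or a pair is not known. Totals leave out the unresolved genes. For every gene, recovered reads are the smallest whole numbers that match the ratios between samples, so they and their totals are lower bounds. GBP6, GBP7, IFNB1 and AIM2 were above 0 in fewer samples, so fewer ratios fix their numbers. RPKM values were tested as log2(RPKM + 0.1) for genes of at least 0.5 RPKM in at least 3 of 6 samples with limma 3.58.1 in R 4.3.3 (eBayes with an intensity trend, Benjamini-Hochberg over 12428 genes). Fold changes on this scale are too small for low genes. voom on recovered reads, chosen after seeing the data, gave 1053 DEGs against 981. Ratios between members were tested by exact permutation over samples. Scripts were tested on simulated data. Named genes are the 5 members, DEGs of 8 lists and list genes whose role bears on the members, the 3 nearest genes per member and the tested neighbours of the cluster. Members and lists were chosen with earlier results of these data known, and no gene set test was run. Some genes are not reported here, and the list counts leave them out. Coding sequences come from GENCODE 44. Python 3.11.15, numpy 2.4.6, pandas 2.3.3, scipy 1.17.1 and matplotlib 3.10.9 were used. Other pseudocounts, filters, scalings, thresholds and sample sets were tried.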

Additional observations from a re-analysis of the deposited data

How the results depend on the processing

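GBP1, GBP2, GBP3 and GBP5 stayed up-regulated DEGs under every alternative that tested them, and every member kept its direction. With RPKM of at least 1 in every sample, only GBP1 and GBP3 were tested, so 2 members were DEGs. GBP4 became a DEG only without shRNA-UBC9 replicate 3, at 1.18. Leaving out 1 sample at a time, the log2 fold change ranged from 1.62 to 2.28 for GBP1, 1.37 to 2.03 for GBP2, 1.09 to 1.54 for GBP3, 0.51 to 1.18 for GBP4, and 3.75 to 4.48 for GBP5. The number of DEGs was 981, and 552 with a pseudocount of 1, 552 with RPKM of at least 1 in every sample, 4576 with no fold change limit, and 926 to 1065 without 1 sample. Of the listed genes, 18 were DEGs, 32 with no fold change limit and 16 to 22 without 1 sample, with 4 to 5 members called. Without shRNA-UBC9 replicate 3, 3 receptor and transducer genes and 8 partners and effectors were DEGs, against 1 and 5, and 2 receptor and transducer genes were DEGs without shRNA-NC replicate 2, without shRNA-UBC9 replicate 2 and by voom. SOCS3 is near the limit, and 1 brake rather than 2 was a DEG in 7 alternatives, among them quantile normalization, median scaling, and leaving out shRNA-NC replicate 3 or shRNA-UBC9 replicate 2 or 3. Without the filter, GBP1P1 (1.73), IFNB1 (2.44) and AIM2 (1.86) were also DEGs, with sizes that depend on the pseudocount. With a pseudocount of 1, IFNL1 and NLRC5 were not DEGs. Quantile normalization, which shifted the median of all genes to -0.04, changed the split of 646 up-regulated and 335 down-regulated DEGs to 573 and 408. Across all tested genes replicate numbers showed no common pairing: deviations of same-numbered samples from their group means correlated at -0.37, 0.07 and -0.17. For the 5 members, mean deviations in shRNA-NC and shRNA-UBC9 were -0.40 and -0.04 (replicate 1), 0.41 and 0.63 (replicate 2), and -0.01 and -0.59 (replicate 3). Pairing within the members alone was not tested. The replicate block changed the SE of GBP1 from 0.344 to 0.146. With the replicate block, 974 genes were DEGs, as were 18 list genes and the same 4 members, and GBP4 had a limma adjusted p-value of 0.0365 with an unchanged log2 fold change of 0.86. Depth limits GBP6, GBP7 and the control values of GBP5, IFNB1 and AIM2.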
